A study of Mus musculus with 5 samples.

Results

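The BCL2 family genes of dermal group 2 innate lymphoid cells (dILC2s) were described with 10 members, taken as the rows of the deposited count table whose gene symbol was *Bcl2*, *Bcl2l1*, *Mcl1*, *Bax*, *Bak1*, *Bcl2l11*, *Bid*, *Bad*, *Bbc3* or *Pmaip1*. They are 10 of 47729 genes in the table and 10 of the 19011 genes that passed the filter on low counts. The study asked whether dILC2s of *Rag1*-/- mice differ from those of wild-type (WT) mice in their transcriptome. Viable CD45+CD90hi cells negative for CD2 and CD3 were sorted from skin and sequenced without stimulation, in 3 pools from WT and 2 pools from *Rag1*-/- mice, all adult females on the C57BL/6 background. The labels give 30 WT mice and 16 *Rag1*-/- mice, and the study's methods give another number for the latter, so that each library is a pool of several animals. *Rag1* encodes a subunit of the recombinase that assembles antigen receptor genes, and its loss in the whole animal leaves these mice without mature T and B cells, so that the cells also developed in a different host. The labels name the sorted cells innate lymphoid cells type 2 for WT and type 3 for *Rag1*-/-, whereas the study describes both as dILC2s.

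BCL2 proteins decide at the outer mitochondrial membrane whether a cell releases cytochrome c and activates caspases. The pro-survival proteins BCL2, BCL-xL and MCL1 hold the pore-forming proteins BAX and BAK in check, and the BH3-only proteins BIM, BID, BAD, PUMA and NOXA bind the pro-survival proteins or activate the pore formers. Lymphocytes deprived of cytokines such as IL-7 are known to die by this route, with BIM as a main trigger and BCL2 and MCL1 as the main protectors.

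Library depth was between 32939428 and 39477243 counts on genes in WT, and it was 8050562 in *Rag1*-/- pool 2 and 38922750 in *Rag1*-/- pool 7. The smallest level that 3 counts can show was 0.373 CPM (counts scaled to a library total of 1000000) in *Rag1*-/- pool 2 and at most 0.0911 CPM in the other libraries. *Rag1* itself was counted 4, 0 and 5 times in WT pools 5, 6 and 13 and 5 and 48 times in those labelled *Rag1*-/- (pools 2 and 7), so that the targeted gene was not lower there. Which part of the gene these mice lack is not given in the sources used here, so that the counts may not check the label, and genotypes are given as labelled throughout. Libraries also differed in cell type markers. A list of leukocyte genes with 38 rows, of which *Cd37* has more than 1, held between 0.146% and 0.350% of the counts in WT. It held 1.11% and 0.971% in *Rag1*-/- pools 2 and 7, and 24 of the 38 rows rose while none fell. *Thy1*, which encodes the CD90 of the sort, rose (log2 fold change 1.89, adjusted p = 0.0306, edgeR's quasi-likelihood test), *Ptprc*, which encodes CD45, had a value of 1.63 (adjusted p = 0.103), *Il7r*, the IL-7 receptor, 1.75 (adjusted p = 0.0746) and *Gata3*, the lineage factor of ILC2s, 0.92 (adjusted p = 0.0998). DESeq2 called *Ptprc* (adjusted p = 0.0144) and *Il7r* (adjusted p = 0.00495) higher as well, and not *Gata3*, whose log2 fold change was 0.89 there. A list of keratinocyte genes summed to between 37350 and 52840 CPM in WT and to 9493 and 21607 CPM in *Rag1*-/- pools 2 and 7. Of its 35 rows tested, 11 fell and none rose, with *Krt5* at a log2 fold change of -1.26 (adjusted p = 0.0666) and *Krt14* at -1.15 (adjusted p = 0.0841), and none of its genes was at 0 in every library, although 3 of the 7 rows that bear the symbol *Flg* were. DESeq2 called *Krt5* (adjusted p = 0.000588) and *Krt14* (adjusted p = 0.00223) lower. A list of T cell genes summed to between 111.1 and 249.2 CPM in WT and to 816.5 and 676.1 CPM in *Rag1*-/- pools 2 and 7, with 7 of 16 genes higher. The gate excluded cells by CD2 and CD3 signal and not by these transcripts. *Cd3g* was among the 7 (log2 fold change 2.23, adjusted p = 0.0306, edgeR). *Cd3e* (0.32, adjusted p = 0.553), *Cd3d* (0.38, adjusted p = 0.655) and *Cd5* (-1.48, adjusted p = 0.135, edgeR for each) were not called. A list of 20 ILC2 genes had 8 that rose and none that fell, and its sum was 1909 to 3892 CPM in WT and 9966 and 7468 CPM in *Rag1*-/- pools 2 and 7. In such bulk libraries fewer cells of a type and less RNA per cell cannot be told apart.

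Of the 10 members, 3 rose in the libraries labelled *Rag1*-/- and none fell, and all 3 had negative values when the libraries were scaled on the leukocyte list. That scaling moved the median of all genes to -2.13, below the values of the 3, and called 66.7% of all genes lower. None of the 3 was called on that scale. The 3 were *Bcl2l1*, *Bax* and *Bak1*, a pro-survival gene and both pore-forming genes. A call required an edgeR p-value that stayed under 0.05 after Benjamini-Hochberg adjustment over all genes tested, together with a log2 fold change beyond 1 in either direction. Over all genes 5.73% were called, 3.57% as higher and 2.16% as lower. With DESeq2 *Bcl2* and *Bcl2l11* were called as well, 5 members higher and none lower, where 6.4% of all genes were called higher and 6.56% lower. These same 5 members had an unadjusted edgeR p-value under 0.05, as did 26.4% of all genes. In the same 5 both libraries labelled *Rag1*-/- lay above every WT library, as did 21.9% of all genes. In 2 members, *Bid* and *Pmaip1*, both lay below every WT library, as did 24% of all genes, and in the other 3 the groups overlapped. The members' median log2 fold change was 0.67 and that of all genes tested 0.02. With any WT library or *Rag1*-/- pool 2 left out, edgeR called none of the members and no gene at all, although 5 members kept an unadjusted p-value under 0.05 each time. Without *Rag1*-/- pool 7 it called 1 member, *Bcl2*. With either *Rag1*-/- pool left out, the lone library is assumed to vary like the WT libraries, which alone supply the spread.

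**Figure D1:**
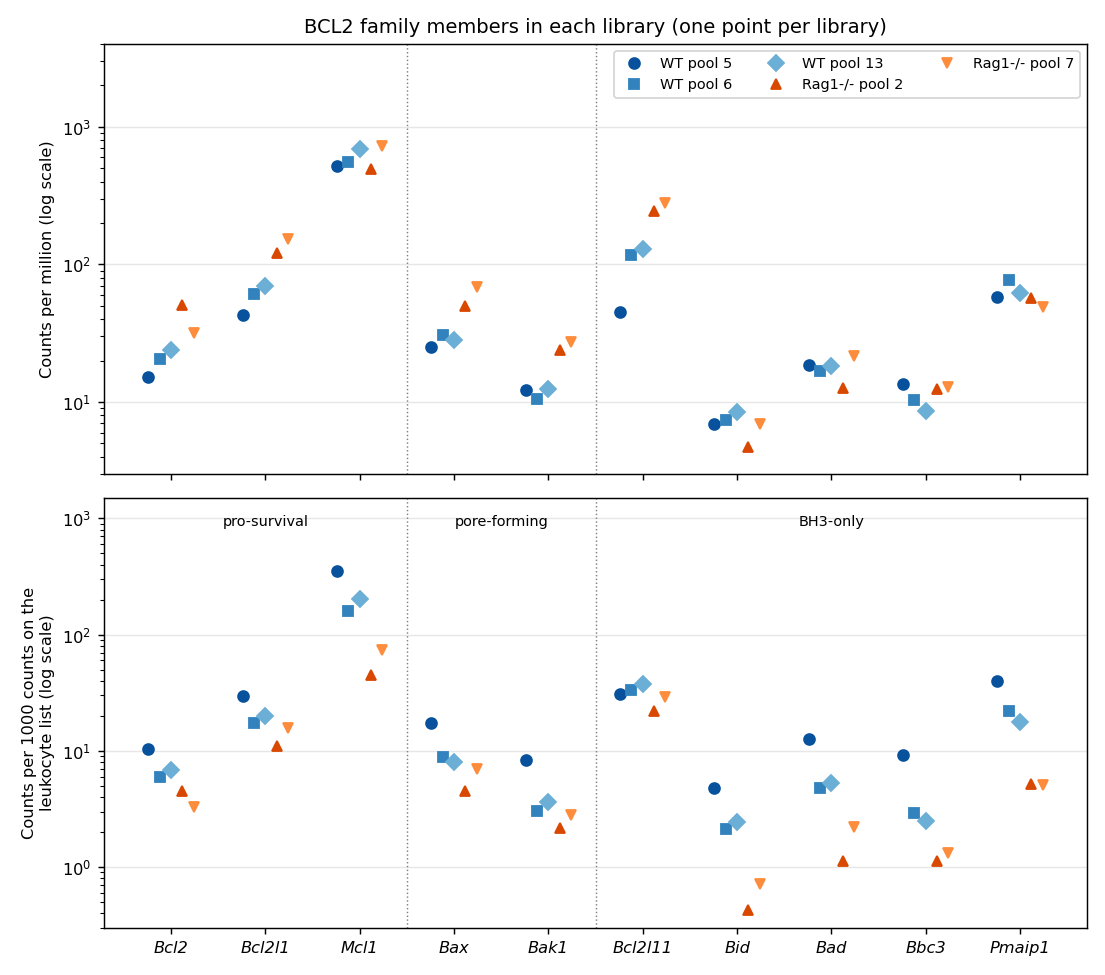
CPM of the 10 BCL2 family members (upper panel) and their counts per 1000 counts on the leukocyte list (lower panel), both on log axes, with a point for each WT library and each library labelled *Rag1*-/-. *Bcl2*, *Bcl2l1*, *Bax*, *Bak1* and *Bcl2l11* are separated with the *Rag1*-/- libraries above, a direction that turns when the libraries are scaled on leukocyte genes, and *Mcl1*, at 495 to 722 CPM, is the highest member in every library. On the leukocyte scale 85.9% of all genes tested have both *Rag1*-/- libraries below every WT library.

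Among the pro-survival genes, *Bcl2l1* encodes BCL-xL, which binds BAX, BAK and BIM. *Bcl2l1* (chromosome 2 of GRCm38, 152780668 to 152831728) had 43.0, 60.6 and 69.4 CPM in WT pools 5, 6 and 13 and 122 and 152 CPM in *Rag1*-/- pools 2 and 7. Both *Rag1*-/- libraries were high and the groups did not overlap. Its log2 fold change was 1.28 (standard error, SE, 0.25, adjusted p = 0.0369, edgeR), a ratio of mean CPM of 2.37. Scaled on the leukocyte list the value was -0.74 (adjusted p = 0.336, edgeR).

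*Bcl2*, the founding pro-survival gene and a known target of IL-7 signals in lymphocytes, did not pass the test. *Bcl2* (chromosome 1, 106538178 to 106714274) had 15.1, 20.7 and 23.9 CPM in WT pools 5, 6 and 13 and 50.4 and 32.0 CPM in *Rag1*-/- pools 2 and 7. The shallow *Rag1*-/- pool 2 held the highest value, and the groups did not overlap. Its log2 fold change was 1.07 (SE 0.28, adjusted p = 0.0649 with edgeR and 0.0113 with DESeq2), and -0.98 on the leukocyte scale (adjusted p = 0.210, edgeR). Over the 5 libraries the genes whose centred log2 CPM lay nearest to that of *Bcl2* were *Sh3kbp1*, *Trib2* and *Sdccag8*, with root mean square differences of 0.04, 0.07 and 0.07 on the log2 scale. The nearest member was *Bcl2l1*, with a difference of 0.33. *Bcl2* shares 6.09% of its exon bases with *D630008O14Rik* on the opposite strand, counted 3, 0 and 5 times in WT and 1 and 0 times in *Rag1*-/- libraries.

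*Mcl1* encodes a short-lived protein that lymphocytes need continuously. *Mcl1* (chromosome 3, 95658788 to 95663176) had 517, 555 and 695 CPM in WT pools 5, 6 and 13 and 495 and 722 CPM in *Rag1*-/- pools 2 and 7. The *Rag1*-/- libraries were the lowest and the highest of the 5. Its log2 fold change was 0.09 (SE 0.27, adjusted p = 0.879, edgeR). On the leukocyte scale it was -2.0 (adjusted p = 0.0205, edgeR), close to the median of -2.13 that this scaling gave all genes.

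Both pore-forming genes rose, with values that turned negative on the leukocyte scale, where the median of all genes was -2.13. *Bax* (chromosome 7, 45461695 to 45466898), whose protein moves from the cytosol to mitochondria in dying cells, had 25.3, 31.0 and 28.02 CPM in WT pools 5, 6 and 13 and 49.9 and 68.3 CPM in *Rag1*-/- pools 2 and 7. Every WT library was lower than both *Rag1*-/- libraries. The log2 fold change was 1.11 (SE 0.22, adjusted p = 0.0374, edgeR), and -0.99 on the leukocyte scale (adjusted p = 0.204, edgeR). *Bax* shares 12.2% of its exon bases with *Gm45808* on the same strand, a gene that is not in the count table.

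*Bak1* (chromosome 17, 27019810 to 27029009), whose protein sits on mitochondria also in healthy cells, had 12.2, 10.5 and 12.5 CPM in WT pools 5, 6 and 13 and 24.0 and 27.4 CPM in *Rag1*-/- pools 2 and 7. The WT libraries were tightly grouped and well below both *Rag1*-/- libraries. The log2 fold change was 1.17 (SE 0.21, adjusted p = 0.0331, edgeR), and -1.0 on the leukocyte scale (adjusted p = 0.211, edgeR). *Bax* and *Bak1* were each other's nearest member, with a root mean square difference of 0.19 between their centred log2 CPM over 5 libraries. The libraries were not stranded, and 25.5% of the exon bases of *Bak1* are shared with entries of *Ggnbp1* on the opposite strand. ENSMUSG00000048731 shares 18.2% and was counted 214, 246 and 123 times in WT and 29 and 121 times in *Rag1*-/- libraries. ENSMUSG00000117819 shares 7.35% and is not in the count table.

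Of the 5 BH3-only genes none passed the edgeR test in either direction, and 1, *Bcl2l11*, had an unadjusted p-value under 0.05 and was called higher by DESeq2. With no filter on low counts edgeR called it higher too (1.40, adjusted p = 0.00139). *Bcl2l11* encodes BIM, which binds every pro-survival member. *Bcl2l11* (chromosome 2, 128126038 to 128162547) had 45.3, 116 and 130 CPM in WT pools 5, 6 and 13 and 244 and 280 CPM in *Rag1*-/- pools 2 and 7. WT pool 5 was far below the other WT libraries, by 2.88 times between the highest and lowest WT library, where the other members ranged from 1.11 to 1.62 times. The log2 fold change was 1.46, the largest of the 10 members by edgeR (SE 0.42, adjusted p = 0.0821 with edgeR and 0.0110 with DESeq2), and -0.42 on the leukocyte scale (adjusted p = 0.587, edgeR).

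*Bid* and *Pmaip1* were lower in both libraries labelled *Rag1*-/- than in any WT library, by amounts that did not pass the test. *Bid* (chromosome 6, 120891930 to 120916853), whose protein is cleaved by caspase-8 and links death receptors to mitochondria, had 6.96, 7.45 and 8.44 CPM in WT pools 5, 6 and 13 and 4.72 and 6.94 CPM in *Rag1*-/- pools 2 and 7. *Rag1*-/- pool 7 lay just under the lowest WT library, and the 38 counts of *Rag1*-/- pool 2 have an exact Poisson interval of 3.34 to 6.48 CPM, which covers counting error only. The log2 fold change was -0.33 (SE 0.31, adjusted p = 0.559, edgeR). *Bid* shares 17.7% of its exon bases with *Bcl2l13* on the opposite strand, a gene with more counts than *Bid* in every library.

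*Pmaip1* encodes NOXA, which binds MCL1 and hastens its degradation. *Pmaip1* (chromosome 18, 66458604 to 66465550) had 58.2, 77.7 and 61.7 CPM in WT pools 5, 6 and 13 and 57.1 and 49.3 CPM in *Rag1*-/- pools 2 and 7. WT pool 5 and *Rag1*-/- pool 2 were nearly equal. The log2 fold change was -0.28 (SE 0.21, adjusted p = 0.453, edgeR).

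*Bad* and *Bbc3* overlapped between the groups. *Bad* (chromosome 19, 6941861 to 6951898), whose protein is kept inactive by growth factor signals, had 18.5, 16.7 and 18.2 CPM in WT pools 5, 6 and 13 and 12.7 and 21.5 CPM in *Rag1*-/- pools 2 and 7, the lowest and the highest of the 5 libraries. Its log2 fold change was -0.00 (SE 0.28, adjusted p = 0.995, edgeR), and 20.5% of its exon bases are shared with *Gpr137* on the opposite strand. *Bbc3* (chromosome 7, 16309616 to 16318205) encodes PUMA, a p53 target, and had 13.5, 10.3 and 8.68 CPM in WT pools 5, 6 and 13 and 12.5 and 12.8 CPM in *Rag1*-/- pools 2 and 7. WT pool 5 was the highest of the 5 libraries. The log2 fold change was 0.26 (SE 0.27, adjusted p = 0.602, edgeR).

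**Figure D2:**
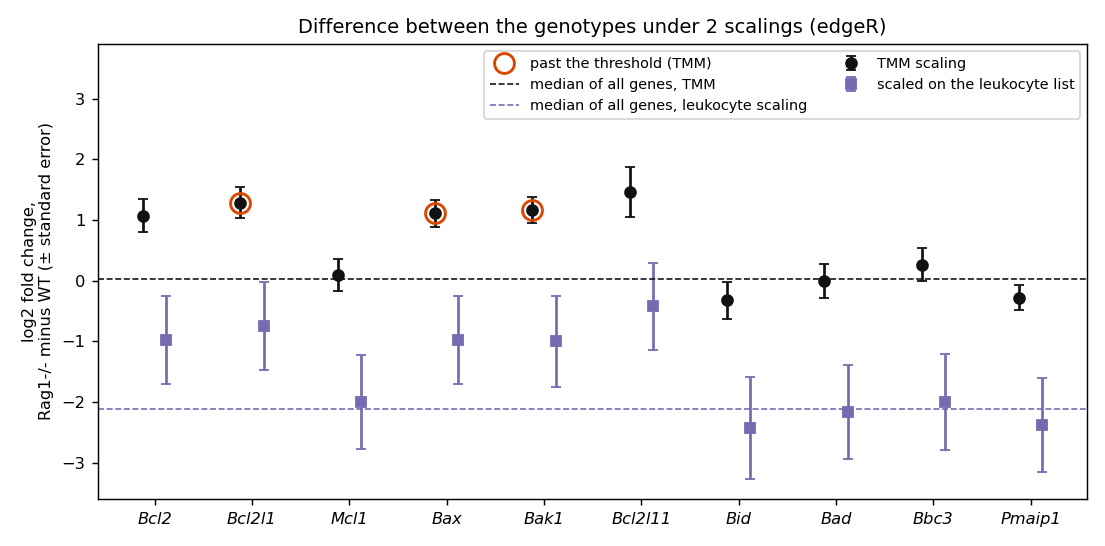
Log2 fold change of each member, libraries labelled *Rag1*-/- against WT, with bars of 1 SE, from edgeR with TMM scaling and with scaling on the 38 rows of the leukocyte list. With TMM scaling 7 members are above 0, and with leukocyte scaling all 10 are below it, as is the median of all genes at -2.13.

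Scaling on leukocyte counts lowered the *Rag1*-/- values of most genes, the members among them. The members' counts were divided by the summed counts of the leukocyte list in the same library, a scale with no test. *Bcl2l1* then had 29.5, 17.3 and 20.1 counts per 1000 leukocyte counts in WT pools 5, 6 and 13 and 10.97 and 15.6 in *Rag1*-/- pools 2 and 7. *Mcl1* had 355, 158 and 201 in WT and 44.5 and 74.4 in *Rag1*-/- libraries. *Bcl2l11* had 31.0, 33.2 and 37.7 in WT and 21.9 and 28.8 in *Rag1*-/- libraries. WT pool 5, the library with the lowest leukocyte share, was the highest of the 5 on this scale for each member except *Bcl2l11*. All 10 members were lower in both *Rag1*-/- libraries than in every WT library on this scale, as were 85.9% of all genes tested. With edgeR scaled on the same list, 5 members were called lower and none higher, namely *Mcl1* (-2.0), *Bid* (-2.44), *Bad* (-2.17), *Bbc3* (-2.0) and *Pmaip1* (-2.38), where 66.7% of all genes were called lower. The part of the leukocyte and keratinocyte shares in the values of any member was not tested.

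Divided by transcript length, *Mcl1* was by far the highest member in both groups, with 172 ± 27.4 CPM per kilobase in WT (SD, n = 3) and 178 ± 46.9 in *Rag1*-/- libraries (SD, n = 2). *Bax* came next, with 32.3 ± 3.26 in WT (SD, n = 3) and 68.0 ± 14.9 in *Rag1*-/- libraries (SD, n = 2). In WT the levels per kilobase then fell from *Pmaip1* (24.9 ± 3.93) over *Bcl2l1* (23.9 ± 5.57), *Bcl2l11* (19.3 ± 9.06), *Bad* (12.3 ± 0.665), *Bbc3* (5.97 ± 1.35), *Bak1* (4.92 ± 0.441) and *Bid* (3.15 ± 0.312) to *Bcl2* (2.77 ± 0.614, SD, n = 3 for each). The neighbours in this order whose WT libraries did not overlap were *Mcl1* and *Bax*, *Bad* and *Bbc3*, and *Bak1* and *Bid*, and the other neighbours were not separated by their spread. *Bcl2* was thus the lowest member per length in WT. In *Rag1*-/- libraries *Bcl2l1* (56.6 ± 8.73) and *Bcl2l11* (52.0 ± 4.97) stood above *Pmaip1* (20.1 ± 2.09), and *Bid* (2.41 ± 0.649) was the lowest (SD, n = 2 for each). The deposited length is that of 1 transcript per gene, so that the order rests on that choice.

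As a share of the summed level per kilobase of the 10 members, which no scaling between libraries changes, *Mcl1* held 58.3%, 53.6% and 59.3% in WT pools 5, 6 and 13 and 40.5% and 45.2% in *Rag1*-/- pools 2 and 7. The share of *Bcl2l1* was 6.86%, 8.28% and 8.38% in WT and 14.1% and 13.4% in *Rag1*-/- libraries. *Bax* held 11.2%, 11.8% and 9.41% in WT and 16.1% and 16.8% in *Rag1*-/- libraries. These shares did not overlap between the groups, with *Mcl1* the smaller and *Bcl2l1* and *Bax* the larger part of the family in the libraries labelled *Rag1*-/-. *Bcl2l11* held 3.46%, 7.62% and 7.56% in WT and 13.6% and 11.9% in *Rag1*-/- libraries, again with no overlap. The shares of *Bak1* (larger in *Rag1*-/- libraries) and of *Pmaip1*, *Bad* and *Bid* (smaller there) did not overlap either. Only those of *Bcl2* and *Bbc3* did. By CPM, both *Rag1*-/- libraries lay above every WT library in 21.9% of all genes and below in 24%. How often such shares separate for other sets of genes was not computed. The shares of a library add up to the whole, so that larger shares of some members lower those of others and the separations are not independent. *Mcl1* itself had a log2 fold change of 0.09 (edgeR, TMM scaling).

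**Figure D3:**
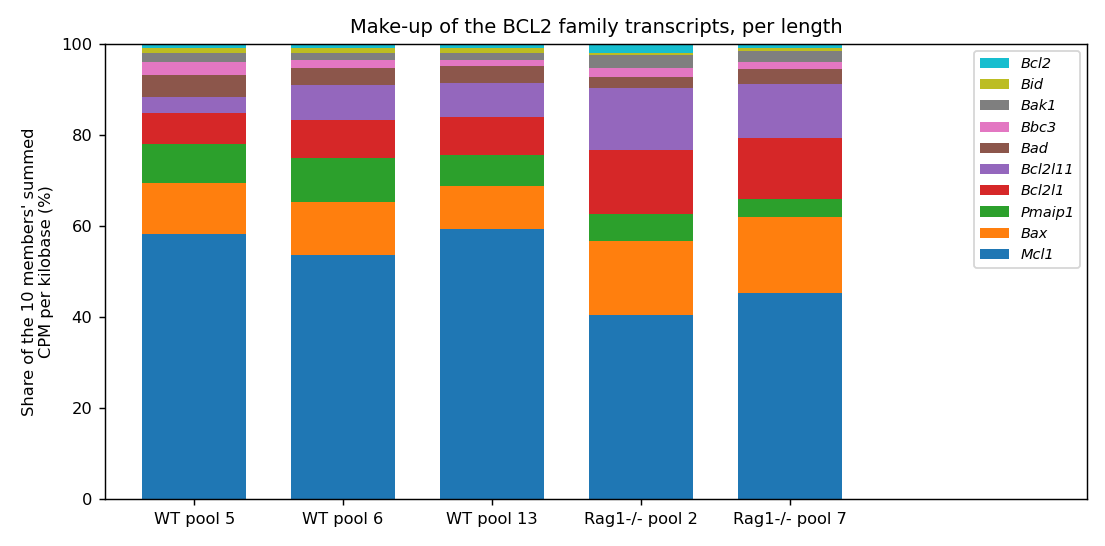
Share of each member, in percent, in the summed CPM per kilobase of the 10 members, with a stacked bar for each library. *Mcl1* takes 53.6% to 59.3% of the bar in WT libraries and 40.5% and 45.2% in libraries labelled *Rag1*-/-, where *Bcl2l1*, *Bax* and *Bcl2l11* take more.

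Ratios within a library were taken for pairs of proteins that bind each other. The ratio of *Bcl2* to *Bax* per kilobase was 0.0723, 0.0807 and 0.103 in WT pools 5, 6 and 13 and 0.122 and 0.0566 in *Rag1*-/- pools 2 and 7, so that the *Rag1*-/- libraries were the highest and the lowest. The ratios of *Bcl2* to *Bcl2l11* and of *Mcl1* to *Pmaip1* overlapped between the groups as well. The ratio of *Bcl2l1* to *Bad* did not overlap, with 1.40, 2.18 and 2.29 in WT and 5.78 and 4.24 in *Rag1*-/- libraries. No test was made of these ratios.

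The start regions of the 3 members that rose and of *Bcl2l11* are shown, so that they can be set beside one another. Each is the stretch of 250 bases before the RefSeq start site (assembly GRCm38.p6), 5′ to 3′ on the strand of the gene, with matches to the searched motifs in capitals. *Bcl2l1* is at chr2:152831729-152831978 (minus strand), *Bax* at chr7:45466899-45467148 (minus strand), *Bak1* at chr17:27028628-27028877 (minus strand) and *Bcl2l11* at chr2:128125788-128126037 (plus strand).
Bcl2l1: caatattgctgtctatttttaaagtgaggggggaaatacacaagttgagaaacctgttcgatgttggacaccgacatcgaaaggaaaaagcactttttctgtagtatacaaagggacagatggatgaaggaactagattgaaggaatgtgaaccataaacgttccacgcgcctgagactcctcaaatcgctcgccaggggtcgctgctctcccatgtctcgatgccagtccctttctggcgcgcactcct
Bax: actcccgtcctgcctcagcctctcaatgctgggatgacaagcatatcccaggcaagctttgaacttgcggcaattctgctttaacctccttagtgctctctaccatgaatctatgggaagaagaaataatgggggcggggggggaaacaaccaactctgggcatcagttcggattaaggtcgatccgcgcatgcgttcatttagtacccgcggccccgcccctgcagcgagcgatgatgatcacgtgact
Bak1: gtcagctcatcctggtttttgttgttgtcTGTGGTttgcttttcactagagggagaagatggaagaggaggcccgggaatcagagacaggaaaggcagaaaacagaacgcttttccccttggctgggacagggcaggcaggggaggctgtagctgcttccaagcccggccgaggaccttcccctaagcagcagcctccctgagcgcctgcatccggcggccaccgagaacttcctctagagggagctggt
Bcl2l11: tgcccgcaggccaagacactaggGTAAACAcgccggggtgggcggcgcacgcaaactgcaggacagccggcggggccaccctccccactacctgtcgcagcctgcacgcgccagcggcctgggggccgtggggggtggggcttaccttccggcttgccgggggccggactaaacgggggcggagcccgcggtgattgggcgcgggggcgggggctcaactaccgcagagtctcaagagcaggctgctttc

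The motifs were chosen with the expression values known and searched on both strands. They were a STAT motif (TTCNNNGAA), a RUNX motif (TGTGGT), a FOXO motif (TGTTTAC) and an NF-kB motif (GGGNNTTTCC), found in 7.02%, 14%, 3.17% and 1.41% of 32851 RefSeq windows of the same length. Of the 10 members 9 had a window in the table, and where a gene had several, only that nearest the 5′ end of the gene in the count table was searched. *Pmaip1* had none. *Bcl2l1* and *Bax* held no match, *Bak1* held a RUNX match from base -221 and *Bcl2l11* a FOXO match on the opposite strand from base -227. The *Bak1* start lies 382 bases from the 5′ end of the gene in the count table. *Mcl1* and *Bbc3* each held an NF-kB match, and none of the 9 windows searched held the STAT motif, which says only that these letters are not in these windows. The GC content was 47.6% for *Bcl2l1*, 54% for *Bax*, 58.4% for *Bak1* and 72% for *Bcl2l11*, against a median of 52.4% over all windows. CpG pairs numbered 12, 14, 8 and 24 in the same order, against a median of 6.

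Around the members, 54 other cell death genes were tested, of which 3 rose, none fell and 51 were not called with edgeR. Over all genes edgeR called 3.57% higher and 2.16% lower. DESeq2 called 7 of the 54 higher and 1 lower, where 6.4% of all genes were called higher and 6.56% lower. Their median log2 fold change was 0.18, and 20 of the 54 had an unadjusted p-value under 0.05, against 26.4% of all genes. Both *Rag1*-/- libraries lay above every WT library in 19 and below in 9, against 21.9% and 24% of all genes. With leukocyte scaling the 54 genes gave 37 calls, where 66.7% of all genes were called lower.

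Of 15 further BCL2 family genes 1 rose, *Bik*, a BH3-only gene. *Bik* had 1.80, 2.23 and 2.79 CPM in WT pools 5, 6 and 13 and 5.84 and 7.40 CPM in *Rag1*-/- pools 2 and 7 (log2 fold change 1.59, SE 0.35, adjusted p = 0.0470, edgeR). Both *Rag1*-/- libraries were clearly above WT at a low level. The list's median was -0.21, with 7 of 15 values positive. *Bok*, a BAX-like gene and with *Bcl2l13* among the most highly counted of the list, had 161, 126 and 109 CPM in WT and 24.6 and 83.8 CPM in *Rag1*-/- libraries (-1.22, SE 0.50, adjusted p = 0.173, edgeR). The lower library was *Rag1*-/- pool 2, which also had the lowest keratinocyte sum and the fewest counts, and a link between these was not tested. *Bcl2l13* had a log2 fold change of -0.72 (adjusted p = 0.147, edgeR). The *Bcl2a1* copies, pro-survival genes of haematopoietic cells named here after their values were seen, had log2 fold changes of 2.32 (*Bcl2a1d*, adjusted p = 0.0530), 1.83 (*Bcl2a1b*, adjusted p = 0.0750) and 0.67 (*Bcl2a1a*, adjusted p = 0.546, edgeR for each). DESeq2 called the first pair higher, and reads of these near-identical copies cannot be assigned with certainty.

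Downstream of mitochondria, none of 15 apoptosome and caspase genes was called by edgeR, with 13 of 15 values positive and a median of 0.33. *Apaf1*, the scaffold of the apoptosome, had 38.5, 68.6 and 68.6 CPM in WT pools 5, 6 and 13 and 166 and 100 CPM in *Rag1*-/- pools 2 and 7 (log2 fold change 1.21, SE 0.32, adjusted p = 0.0697 with edgeR), and it was the only one of the list that DESeq2 called (adjusted p = 0.0105). *Casp8*, the caspase of death receptors that cleaves BID, had a log2 fold change of 0.70 (adjusted p = 0.134, edgeR). None of 5 inhibitor of apoptosis genes was called by either tool, with *Birc3* at 0.61 (adjusted p = 0.155) and *Birc6* at 0.22 (adjusted p = 0.703, edgeR for both). None of 10 genes linked to p53, FOXO, stress or protein turnover was called by either tool, with a median of 0.01. The list includes *Ddit3*, *Usp9x*, *Fbxw7* and *Huwe1*. *Cdkn1a* was at 0.02 (adjusted p = 0.980) and *Huwe1*, a ligase for MCL1, at -0.38 (adjusted p = 0.425, edgeR for both). The FOXO factor *Foxo1*, named after its value was seen, had a log2 fold change of 0.82 (adjusted p = 0.0618, edgeR).

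Of 9 genes of the death receptor pathway (receptors, ligands, *Fadd*, *Tradd*, *Cflar* and *Ripk1*) 2 rose. *Fas*, the receptor of FAS ligand, had 54.8, 71.4 and 74.7 CPM in WT pools 5, 6 and 13 and 141 and 136 CPM in *Rag1*-/- pools 2 and 7 (log2 fold change 1.08, SE 0.20, adjusted p = 0.0350, edgeR). *Tnfsf10*, which encodes the death ligand TRAIL, had 6.11, 15.0 and 12.96 CPM in WT and 62.9 and 34.4 CPM in *Rag1*-/- libraries (2.11, SE 0.41, adjusted p = 0.0369, edgeR). In both genes every WT library was below the *Rag1*-/- libraries. The list's median was 0.72, and *Tnfrsf1a*, a TNF receptor found on many cell types, had a value of -0.61 (adjusted p = 0.216, edgeR).

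**Figure D4:**
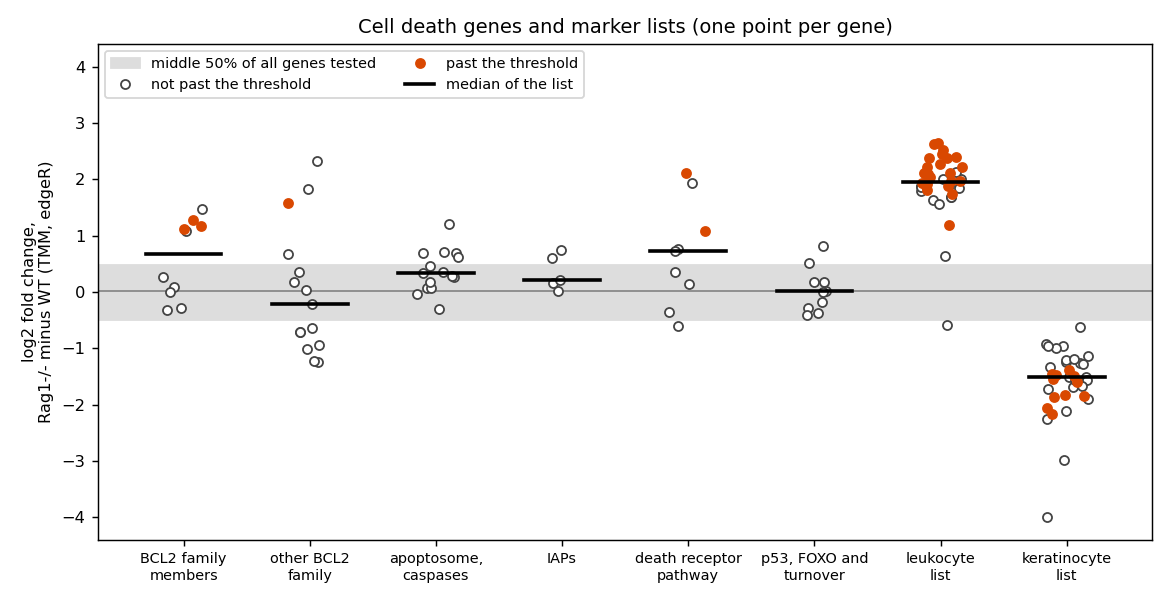
Log2 fold changes, libraries labelled *Rag1*-/- against WT (edgeR, TMM scaling), of the 10 members, of 5 lists of other cell death genes and of the leukocyte and keratinocyte lists, with a point for each gene. The members' median is 0.67 and the medians of the 5 cell death lists lie between -0.21 and 0.72. Those of the leukocyte and keratinocyte lists are 1.95 and -1.52. These values hold for TMM scaling and shift downward with leukocyte scaling, which moves the median of all genes to -2.13.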

How the data were processed

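RNA of sorted dILC2s was sequenced in 5 libraries (single reads, unstranded TruSeq kit). Per the labels, the authors aligned the reads with STAR 2.5 and counted them with featureCounts 1.5.0-p1 on GRCm38 (GRCm39 is also named). They deposited raw counts per gene and a table of normalized counts per gene symbol, a signal that here served 1 alternative only. The members and gene lists were chosen with earlier results of these data known. All counts were filtered with filterByExpr, scaled with TMM and fitted by the quasi-likelihood method of edgeR 4.0.16 (R 4.3.3), with genotype as the only term, the thresholds were those of the study, and the fit was tested on simulated data. The SE printed with edgeR was derived as the absolute log2 fold change divided by the square root of the test's F statistic. Each pool was 1 replicate. The pool numbers of the groups are not shared, so that no block was fitted. Named besides the members were every gene called in a cell death list, the 2 genes with the highest mean CPM in each of those lists, *Rag1*, 6 markers and the 3 genes most like *Bcl2*. *Bcl2a1a*, *Bcl2a1b*, *Bcl2a1d* and *Foxo1* were named outside this rule, after their values were seen. Exon overlaps were taken from GENCODE M21. The alternatives were DESeq2 1.42.0, RLE, leukocyte or plain library size scaling, limma 3.58.1 on log2 of the deposited signal plus 1, a filter of 10 counts per library or none, calls without the fold threshold, a robust fit and each library left out. Intervals and floors cover counting error only, since reads carried no molecular identifiers.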

Additional observations from a re-analysis of the deposited data

How the results depend on the processing

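With the main settings 3 members were called, 3 higher and 0 lower, and 3 other cell death genes. DESeq2 called 5 members, 5 of them higher, and 8 other genes. Leukocyte scaling called 5 members, 0 higher and 5 lower, and 37 other genes. Without the filter on low counts 4 members were called, all higher, with *Bcl2l11* gained, and 7 other genes. With each library left out in turn, edgeR called between 0 and 1 members, between 0 and 1 higher, and between 0 and 8 other genes. Without 1 WT library or *Rag1*-/- pool 2 no gene was called, while unadjusted p-values were under 0.05 for 3521 to 5200 genes, with 5 members among them each time. Without *Rag1*-/- pool 7, *Bcl2* passed (1.28, adjusted p = 0.0363) and *Bak1* fell under the fold threshold (0.97, adjusted p = 0.0432, edgeR for both), where the lone *Rag1*-/- library is assumed to vary like the WT libraries. Leukocyte scaling turned the sign of *Bcl2* (-0.98), *Bcl2l1* (-0.74), *Mcl1* (-2.0), *Bax* (-0.99), *Bak1* (-1.0), *Bcl2l11* (-0.42) and *Bbc3* (-2.0), by the construction of a scale that shifts all genes. With a library left out, *Mcl1* ranged from -0.31 to 0.37 and *Bad* from -0.55 to 0.35, each on both sides of 0, and the cause was not tested. Over all genes the count of calls moved from 679 higher and 411 lower to 1216 and 1248 with DESeq2, to 1157 and 1488 without the filter, to 16 and 12688 with leukocyte scaling, and to 814 and 1595 without *Rag1*-/- pool 7. No paired analysis was possible because the groups share no replicate numbers. *Rag1*-/- pool 2 had the fewest counts, with 38 for *Bid*, the fewest of any member.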
